A study of Rattus norvegicus with 12 samples.

Results

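The proteasome genes of neonatal rat cardiac myocytes were followed through 8 h of doxorubicin, an anthracycline that damages DNA and is toxic to the heart, with and without knockdown of p300. The set holds every gene whose platform symbol starts with Psma, Psmb, Psmc, Psmd, Psme, Psmf or Psmg and a number, read from its brightest probe set that carries 1 symbol. It comes to 47 of the 14506 genes measured this way. They are 6 alpha and 7 beta subunits of the constitutive core, 4 immunoproteasome or thymus-specific beta subunits, 9 base subunits, 8 lid subunits, 4 regulators that cap the core and 6 assembly chaperones. The other 3 genes, Psma3l, Psmc3ip and Psme3ip1, match the name pattern and were placed in none of these subgroups. Psma3, Psma8, Psmf1 and Psmg3 have no probe set with 1 symbol here and were not analysed here as genes.

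The myocytes came from newborn Sprague Dawley rats. By the submitters' account over 90% of the cultured cells were myocytes, fibroblasts being held back with bromodeoxyuridine, and all cells were transfected and then kept 48 h without serum. NS cells received a non-silencing siRNA and p300kd cells an siRNA against p300, the histone acetyltransferase encoded by Ep300, and each kind was sampled untreated (0 h) or after 8 h in 1 µM doxorubicin (Dox). Each of the 4 groups has 3 arrays, titled as biological replicates 1 to 3. These numbers were read as the 3 experiments of the series design, a link that no label states for each array. The 0 h cells saw neither the drug nor the further 8 h, so drug and time cannot be told apart. The experiments are separate cultures, and the p-values of the main fit measure the spread between them. Those given with the experiment as a block leave out shifts that the arrays of an experiment share. They measure how far the differences vary from experiment to experiment.

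The proteasome is the protease that degrades ubiquitin-tagged proteins. Its core is a barrel of alpha and beta rings with the proteolytic sites inside, and the regulatory particle on its ends has a base of ATPases that unfold substrates and a lid that removes ubiquitin. Interferon-gamma replaces the catalytic beta subunits with immunoproteasome forms that favour peptides for antigen presentation, and cells short of proteasome activity raise subunit genes together through the transcription factor NRF1 (Nfe2l1). In the heart the proteasome clears damaged and misfolded sarcomere proteins.

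The promoters of a few genes that the results turn on are shown first: lid genes that were lower after Dox (Psmd7, Psmd11), inducible catalytic subunits that were higher (Psmb9, Psmb10) and the core alpha gene with the highest change (Psma2). The sequences are the 250 bases before the RefSeq gene start on the build GRCr8, read 5′ to 3′ on the gene's strand. Capitals mark a match, on either strand, to CCAAT (the NF-Y box), TGACNNNGC (the antioxidant-type element that NRF1 can bind) or GAAANNGAAA (an interferon-type element). Psmd7 is at chr19:52411317-52411566 on the minus strand, Psmd11 at chr10:65932093-65932342 on the plus strand, Psmb9 at chr20:4668750-4668999 on the plus strand, Psmb10 at chr19:50743293-50743542 on the minus strand and Psma2 at chr17:55260442-55260691 on the minus strand.
Psmd7: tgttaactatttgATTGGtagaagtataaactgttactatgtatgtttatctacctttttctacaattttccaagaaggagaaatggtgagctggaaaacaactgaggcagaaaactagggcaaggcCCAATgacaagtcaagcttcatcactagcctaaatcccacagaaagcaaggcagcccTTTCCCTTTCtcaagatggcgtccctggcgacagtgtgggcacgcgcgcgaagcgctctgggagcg
Psmd11: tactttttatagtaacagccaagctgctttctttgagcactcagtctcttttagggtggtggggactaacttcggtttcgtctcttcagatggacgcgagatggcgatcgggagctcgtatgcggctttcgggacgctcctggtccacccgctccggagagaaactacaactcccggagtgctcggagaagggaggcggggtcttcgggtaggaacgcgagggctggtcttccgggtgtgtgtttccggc
Psmb9: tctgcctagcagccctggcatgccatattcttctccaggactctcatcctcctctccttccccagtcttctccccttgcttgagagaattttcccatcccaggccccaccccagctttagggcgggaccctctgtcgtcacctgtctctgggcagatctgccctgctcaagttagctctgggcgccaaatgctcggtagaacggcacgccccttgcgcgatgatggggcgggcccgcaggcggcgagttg
Psmb10: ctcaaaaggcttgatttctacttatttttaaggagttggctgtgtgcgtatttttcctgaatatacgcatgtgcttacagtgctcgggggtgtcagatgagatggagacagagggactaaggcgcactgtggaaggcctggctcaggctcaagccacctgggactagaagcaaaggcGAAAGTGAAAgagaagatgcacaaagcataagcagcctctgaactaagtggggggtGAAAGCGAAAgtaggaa
Psma2: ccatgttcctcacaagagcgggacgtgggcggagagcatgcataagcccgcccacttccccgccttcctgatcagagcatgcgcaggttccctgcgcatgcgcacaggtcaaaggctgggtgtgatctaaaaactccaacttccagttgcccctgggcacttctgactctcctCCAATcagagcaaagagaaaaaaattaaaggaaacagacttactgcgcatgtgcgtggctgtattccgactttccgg
Psmb10 holds 2 interferon-type matches, Psmd7 holds 2 CCAAT matches and 1 interferon-type match, Psma2 holds 1 CCAAT match, and Psmd11 and Psmb9 hold none of the 3 in this window. Of the 47 genes 41 had a promoter in the table. CCAAT was found in 19 of the 41 (46.3%) against 34.0% of all 33469 promoters, TGACNNNGC in 6 (14.6%) against 10.1%, and GAAANNGAAA in 5 (12.2%) against 3.41%. The CCAAT matches lay in 4 of 5 core alpha promoters (80.0%), 4 of 7 core beta promoters (57.1%) and 3 of 9 base promoters (33.3%). The antioxidant-type matches lay in Psmb2, Psmb5, Psmb6, Psmd1, Psmd9 and Psme4, and the interferon-type matches in Psma4, Psmb3, Psmb10, Psmd7 and Psme2. In Psmb2 a CCAAT match and a TGACNNNGC match share 1 base. A match describes these letters only and shows no bound factor.

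The members were well measured: 44 of the 47 had a mean log2 intensity above that of the median gene (8.57), and 32 lay above the upper quartile of all genes. Psmb11, the thymus-specific subunit, was the dimmest at a mean of 6.80, under the lower quartile of all genes (6.87). Values of different probe sets are not set against each other. Ep300 itself was 51.9% of its NS level at 0 h in p300kd cells (log2 difference -0.95 ± 0.13 SE, adjusted p = 0.0404) and 52.9% at 8 h (-0.92 ± 0.13, adjusted p = 0.0271), by limma with Benjamini-Hochberg adjustment over all 14506 genes, as for every adjusted p here. The 15 myocyte marker genes had a summed log2 level between 17.06 and 17.29 on all 12 arrays. None of them passed for Dox, but with the experiment as a block 2 rose in NS cells, and 5 rose and 1 fell in p300kd cells. With the block 21.6% of all genes rose and 21.9% fell in NS cells, and 22.9% and 22.8% in p300kd cells. Without the block 11.1% of all genes rose and 16.4% fell with Dox in NS cells, and 13.9% and 17.5% in p300kd cells. Of 10 smooth muscle and pericyte markers 1 rose and 4 fell in each condition. Of 10 endothelial markers 1 rose and 2 fell in NS cells and 2 fell in p300kd cells, of 15 fibroblast markers 1 and 2 rose and 1 fell in each, and of 6 erythroid markers 2 and 1 rose. The part of these cells in the members' values was not tested.

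In NS cells 8 of the 47 genes passed the 0.05 threshold for Dox, against 27.5% of all genes. There were 4 rises (11.1% of all genes) and 4 falls (16.4% of all genes). Those that rose were Psmb9, Psmd10, Psmb10 and Psmg4, and those that fell were Psmd5, Psmd12, Psmd11 and Psmd7. In p300kd cells 12 of the 47 passed (25.5%, against 31.4% of all genes), with 8 rises (13.9% of all genes) and 4 falls (17.5%). In this fit, which has no block for experiment, both shares of members lay under the background. No member changed 2-fold. The median change over the members was 0.06 in NS cells and 0.08 in p300kd cells on the log2 scale, against 0.04 in each over all genes. Psmd10 and Psmg4 rose and Psmd5, Psmd7, Psmd11 and Psmd12 fell in both siRNA conditions, while 33 members passed in neither. The 2 Dox comparisons use separate arrays of the same 3 experiments, and 42 of the 47 members had the same sign in both. Shared signs were not counted over all genes. The arrays of the 2 times did not overlap for 11 members in NS cells (41.3% of all genes), 6 of them above (20.1%) and 5 below (21.2%). They did not overlap for 17 in p300kd cells (43.2% of all genes), 11 of them above and 6 below (21.6% each).

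With the experiment as a block, which the pairing of arrays allows, 22 members passed in NS cells (43.5% of all genes), 17 up (21.6%) and 5 down (21.9%). In p300kd cells 27 passed (45.8% of all genes), 21 up (22.9%) and 6 down (22.8%). Of these 20 passed in both, 15 up and 5 down. With the block the members' share of passing genes and of rises lay above that of all genes in both conditions. Their share of falls lay below it. Whether the members differ from other genes was not tested. Centring each array on the median of the genes moved the median gene's Dox change from 0.04 to 0.14 in NS cells and from 0.04 to 0.15 in p300kd cells, so that more members counted as higher. In NS cells 18 then passed (38.8% of all genes), 15 up (26.2%) and 3 down (12.6%), and in p300kd cells 20 passed (43.7%), 17 up (29.9%) and 3 down (13.7%). That setting was chosen after seeing the data. Without experiment 2, or without experiment 3, only Psmd5 still passed in NS cells, where 12.3% and 13.4% of all genes passed. In p300kd cells Psmd10 and Psmd11 passed without experiment 2 and no member passed without experiment 3 (15.6% and 16.3% of all genes). Without experiment 1 the counts were 13 and 17 (27.1% and 32.2% of all genes).

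**Figure D1:**
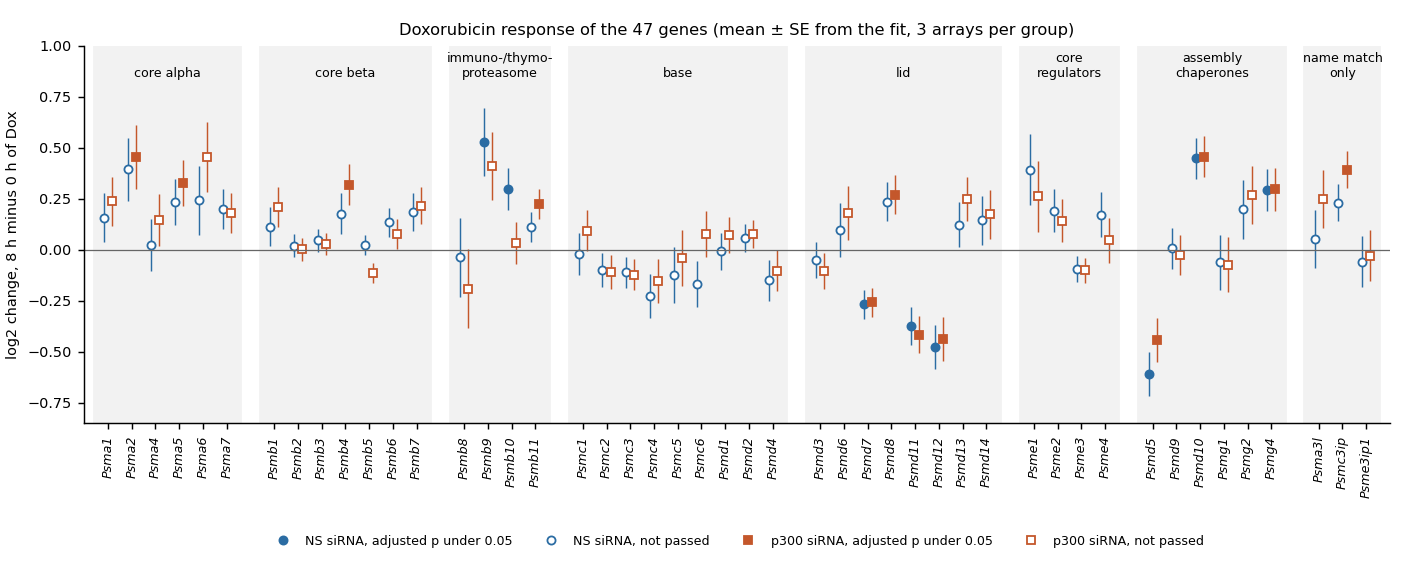
Log2 change with Dox (8 h minus 0 h, vertical axis) of the 47 genes, grouped by their place in the proteasome, in NS cells (blue circles) and p300kd cells (orange squares); bars are ± 1 SE of the fit with 3 arrays per group, and filled symbols passed an adjusted p under 0.05. The 6 core alpha genes lie above 0 in both conditions, the 9 base genes lie between -0.23 and 0.09, and Psmd7, Psmd11, Psmd12 and Psmd5 stand below 0.

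The core alpha subunits, which form the outer rings and the gate of the barrel, all lay above 0 with Dox. Their median log2 change was 0.22 in NS cells (range 0.02 to 0.39) and 0.28 in p300kd cells (0.15 to 0.46). None of the 6 passed in NS cells, and Psma2 and Psma5 rose in p300kd cells. With the experiment as a block 5 of the 6 rose in each condition, all but Psma4. Over all genes 21.6% rose with the block in NS cells and 22.9% in p300kd cells. The alpha genes lay above 0 in each scaling tried.

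Psma2 read 10.18, 10.53 and 10.50 in the 3 experiments of untreated p300kd cells and 10.61, 10.92 and 11.04 after Dox. Every treated array was above every untreated one, with experiment 1 the lowest in both groups. The log2 change was 0.46 ± 0.16 SE (1.37-fold, adjusted p = 0.0403; with the block 3.32e-05). In NS cells Psma2 read 10.18, 10.45 and 10.53, then 10.48, 11.002 and 10.86, so that the groups overlapped, and the difference of 0.39 ± 0.16 did not pass (adjusted p = 0.079; with the block 0.000157). Psma5 read 9.37, 9.45 and 9.49 untreated and 9.58, 9.80 and 9.91 treated in p300kd cells, with no overlap. Its change there was 0.33 ± 0.11 (1.25-fold, adjusted p = 0.0407), and its difference in NS cells was 0.23 ± 0.11 (adjusted p = 0.144; with the block 0.0193).
Both calls in p300kd cells rested on single arrays. That of Psma2 was lost without the experiment 2 array of untreated NS cells, without any 1 of the untreated p300kd arrays and without the experiment 2 or 3 array of treated p300kd cells (adjusted p 0.0523 to 0.153). That of Psma5 was lost without the same arrays or the experiment 3 array of untreated NS cells (0.0504 to 0.158). Centring arrays on their own median took both calls too (0.0617 for Psma2 and 0.0702 for Psma5). Fitting only the groups compared took that of Psma5 (0.0533).

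The 7 constitutive beta subunits had median differences of 0.11 in NS cells and 0.08 in p300kd cells. None passed in NS cells and only Psmb4, a structural beta subunit without proteolytic activity, rose in p300kd cells. It read 11.63, 11.68 and 11.88 untreated and 11.96, 12.001 and 12.19 treated, without overlap, a change of 0.32 ± 0.10 (1.25-fold, adjusted p = 0.0296). In NS cells its difference was 0.18 ± 0.10 (adjusted p = 0.221; with the block 0.0298). The call in p300kd cells was lost without the experiment 1 or 2 array of the untreated cells or the experiment 2 or 3 array of the treated cells (0.0532 to 0.124), and under quantile normalization (0.0675). Centring arrays on their own median took it too (0.0573). Psmb2 and Psmb3, also structural, stayed between 0.00 and 0.05 in both conditions.

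Of the constitutive catalytic subunits, Psmb6 carries the caspase-like site, Psmb7 the trypsin-like site and Psmb5 the chymotrypsin-like site. None of them passed for Dox in either condition. Psmb6 read 11.56, 11.54 and 11.62 in untreated NS cells, 11.70, 11.60 and 11.82 in treated NS cells, 11.68, 11.58 and 11.76 in untreated p300kd cells and 11.76, 11.76 and 11.74 in treated p300kd cells. Treated and untreated arrays overlapped in both conditions, and the differences were 0.13 ± 0.07 (adjusted p = 0.193; with the block 0.0474) and 0.08 ± 0.07. Psmb7 read 11.97, 12.29 and 12.19, then 12.20, 12.39 and 12.42 in NS cells, and 12.04, 12.18 and 12.22, then 12.26, 12.38 and 12.45 in p300kd cells. The differences of 0.19 ± 0.09 (adjusted p = 0.161) and 0.22 ± 0.09 (0.0949) passed with the block (0.00363 and 0.00102). Psmb5 read 12.60, 12.69 and 12.59, then 12.69, 12.65 and 12.61 in NS cells, and 12.77, 12.78 and 12.78, then 12.66, 12.71 and 12.61 in p300kd cells. It was the tightest of the catalytic genes, and in p300kd cells each treated array lay below each untreated one (-0.11 ± 0.05, adjusted p = 0.0997; with the block 0.0224), a difference that centring on the genes' median reduced to -0.01. In NS cells its difference was 0.02 ± 0.05.

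Of the inducible subunits that take these places, Psmb9 and Psmb10 rose in NS cells and Psmb8 did not pass. Psmb9, which replaces Psmb6, read 10.23, 10.74 and 10.69 in untreated NS cells and 10.81, 11.32 and 11.11 after Dox. All treated arrays were above all untreated ones, and the rise was 0.53 ± 0.17 (1.44-fold, adjusted p = 0.0319), the highest among the 47 in NS cells. In p300kd cells Psmb9 read 10.43, 10.68 and 10.72, then 10.74, 11.18 and 11.14, again without overlap, with a difference of 0.41 ± 0.17 (1.33-fold) that missed the threshold (adjusted p = 0.0791; with the block 7.78e-05). The call in NS cells was lost without the experiment 1 array of untreated cells (0.136) and without the experiment 2 or 3 array of treated cells (0.125 and 0.0833).

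Psmb10, which replaces Psmb7, read 8.89, 9.01 and 8.99 in untreated and 9.12, 9.35 and 9.32 in treated NS cells. The groups did not overlap, and the rise was 0.30 ± 0.10 (1.23-fold, adjusted p = 0.0479). In p300kd cells it read 9.17, 9.29 and 9.38 before and 9.15, 9.49 and 9.30 after Dox, overlapping groups with a difference of 0.03 ± 0.10. The untreated p300kd arrays thus overlapped the treated NS arrays, but the difference between the 2 Dox responses, -0.27 ± 0.15, did not pass (adjusted p = 1). The call in NS cells was lost without any 1 of the untreated NS arrays, without the experiment 2 or 3 array of treated NS or of untreated p300kd cells and without the experiment 3 array of treated p300kd cells (0.0527 to 0.144), and when arrays were centred on their own median (0.0785). Fitting only the groups compared took it too (0.0537).

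Psmb8, which replaces Psmb5, did not pass in either condition. It read 9.33, 9.69 and 9.48, then 9.14, 9.72 and 9.53 in NS cells (-0.04 ± 0.19), and 9.37, 9.89 and 9.81, then 9.11, 9.73 and 9.66 in p300kd cells (-0.19 ± 0.19). The groups overlapped in both, and the spread between experiments was wide, with experiment 1 the lowest in each group. In NS cells the sign turned positive when arrays were centred on the genes' median. Psmb11, expressed in the thymus cortex, rose in p300kd cells by 0.22 ± 0.07 (adjusted p = 0.0348) from 6.64, 6.63 and 6.74 to 6.96, 6.90 and 6.82. The arrays did not overlap, but the values lie near the dim end of the scale, and the call was lost without the experiment 1 or 2 array of either p300kd group (0.0814 to 0.102) and under quantile normalization (0.114). Fitting only the groups compared took the call too (0.0516).

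**Figure D2:**
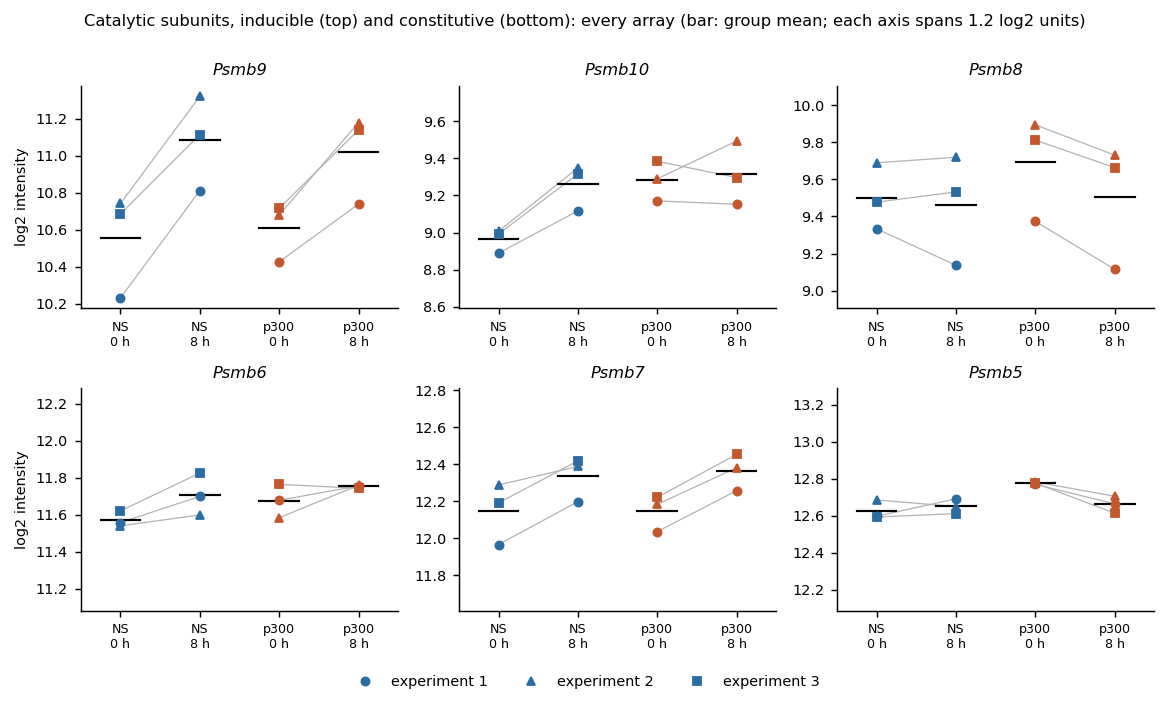
Log2 intensity (vertical axis, 1.2 log2 units in every panel) of the inducible catalytic subunits Psmb9, Psmb10 and Psmb8 (top) above the constitutive subunits they replace, Psmb6, Psmb7 and Psmb5 (bottom), on all 12 arrays. Symbols are experiments, grey lines join arrays of 1 experiment and black bars are group means of 3 arrays; Psmb9 is higher on each treated array than on each untreated array of the same siRNA, while Psmb10 in untreated p300kd cells (9.17 to 9.38) overlaps its level in treated NS cells (9.12 to 9.35).

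Psmb8 and Psmb9 lie beside the peptide transporter genes on chromosome 20. Psmb9 and Tap1 are transcribed away from each other with 457 bases between their RefSeq starts. Tap1, which carries proteasome products into the endoplasmic reticulum, read 10.02, 10.49 and 10.08 in untreated NS cells and 10.96, 11.14 and 10.99 after Dox, with no overlap. It rose by 0.84 ± 0.12 in NS cells (1.79-fold, adjusted p = 0.000179) and by 0.72 ± 0.12 in p300kd cells (1.65-fold, adjusted p = 0.000473). Tap2 lay at 0.04 and -0.05 and did not pass.
Of 14 measured genes of peptide loading and the interferon-gamma route, 2 rose and 1 fell in NS cells (11.1% and 16.4% of all genes). In p300kd cells 3 rose and 1 fell (13.9% and 17.5% of all genes). Erap1, a peptide-trimming protease, rose in NS cells (0.33, adjusted p = 0.0418), Jak1 and Irf8 rose in p300kd cells (0.26 and 0.29), and Rfx5, a regulator of MHC genes, fell in both (-0.81 and -0.63). B2m and Irf1 did not pass in either.
Immunoproteasome genes are abundant in leukocytes. The summed log2 level of 18 macrophage and leukocyte markers was 13.87 to 14.13 in untreated and 13.91 to 14.20 in treated NS cells, and 13.36 to 13.82 in untreated and 13.56 to 13.88 in treated p300kd cells. With Dox 15 of the 18 lay above 0 in NS cells (median 0.10) and 14 in p300kd cells (median 0.11). Of these markers 0 rose and 1 fell in NS cells, and 1 rose and 2 fell in p300kd cells. With the experiment as a block 4 and 5 rose (21.6% and 22.9% of all genes). All 18 lay below 0 in p300kd against NS cells averaged over both times (median -0.29, 7 of them passing). Their part in the values of Psmb8, Psmb9 and Psmb10 was not tested. Fewer cells of a type and less RNA per cell cannot be told apart in these bulk samples.

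The base subunits among the members are the 6 ATPases Psmc1 to Psmc6 and 3 non-ATPase scaffold or ubiquitin-binding subunits, Psmd1, Psmd2 and Psmd4. None of the 9 passed in either condition. Their median change was -0.11 in NS cells, with 8 of 9 below 0, and -0.04 in p300kd cells, with 5 of 9 below 0. With arrays centred on the genes' median, 5 of 9 and 3 of 9 were below 0 and the medians were -0.01 and 0.06, so that the direction of the base as a group depends on the scaling. The lowest in both was Psmc4, an ATPase, at -0.23 ± 0.11 and -0.15 ± 0.11, and it passed with the block in both (0.00352 and 0.0347).

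Without the block, the 3 falls among the core, base and lid subunits in each condition were all in the lid. Falls made up 16.4% of all genes in NS cells and 17.5% in p300kd cells. Psmd7, Psmd11 and Psmd12 fell in both conditions, and Psmd8 rose in p300kd cells. Psmd11, which clamps the regulatory particle to the core, read 10.51, 10.84 and 10.70 in untreated and 10.17, 10.39 and 10.37 in treated NS cells. It read 10.66, 10.66 and 10.69 and 10.27, 10.29 and 10.20 in p300kd cells. No treated array reached an untreated one in either condition. The falls were -0.37 ± 0.09 (1.30-fold lower, adjusted p = 0.00949) and -0.42 ± 0.09 (1.33-fold lower, adjusted p = 0.00427). Psmd12, a scaffold subunit, read 10.67, 10.92 and 10.89, then 10.17, 10.52 and 10.36 in NS cells, and 10.77, 10.87 and 11.0, then 10.34, 10.48 and 10.51 in p300kd cells. The groups were again apart, with falls of -0.48 ± 0.11 (1.39-fold lower, adjusted p = 0.0053) and -0.44 ± 0.11 (1.35-fold lower, adjusted p = 0.0076). Psmd7, the partner of the deubiquitinase Psmd14, read 11.13, 11.27 and 11.24, then 10.84, 10.96 and 11.03 in NS cells, and 11.16, 11.23 and 11.24, then 10.93, 10.97 and 10.97 in p300kd cells. These groups too did not overlap, and the falls were -0.27 ± 0.07 (adjusted p = 0.0149) and -0.26 ± 0.07 (adjusted p = 0.0158).
Without experiment 2 or 3 as a whole the calls of Psmd12 were lost in both conditions (0.0539 to 0.0927), and that of Psmd11 was lost in NS cells (0.109 and 0.0961) and, without experiment 3, in p300kd cells (0.0917). Psmd7 also lost its call in NS cells without the experiment 2 or 3 array of untreated cells or the experiment 1 array of treated cells (0.0512 to 0.059). Fitting only the groups compared took that call too (0.0513). In p300kd cells it was lost without the experiment 2 or 3 array of untreated cells (0.0516 and 0.053). Centring on the genes' median also took both calls of Psmd7 (falls of -0.16 and -0.15, adjusted p = 0.0871 and 0.102).

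The rest of the lid members held 1 rise. Psmd8, a small subunit that joins the lid last, read 11.18, 11.43 and 11.42 in untreated and 11.47, 11.70 and 11.67 in treated p300kd cells, without overlap, a rise of 0.27 ± 0.10 (1.21-fold, adjusted p = 0.046). In NS cells it read 11.11, 11.33 and 11.21, then 11.35, 11.54 and 11.47, also apart, with a difference of 0.23 ± 0.10 (adjusted p = 0.0865; with the block 0.0012). Its call was lost without any 1 of the untreated p300kd arrays, without the experiment 2 or 3 array of treated p300kd or treated NS cells and without the experiment 3 array of untreated NS cells (0.0505 to 0.181), and with the mean of its probe sets (0.094). The call was lost too with arrays centred on their median (0.0867), under quantile normalization (0.0596) and with only the groups compared (0.08). Psmd14, the deubiquitinase, lay at 0.14 ± 0.12 and 0.17 ± 0.12 and passed only with the block in p300kd cells (0.0451). Psmd13 lay at 0.12 ± 0.11 and 0.25 ± 0.11, the latter at an adjusted p of 0.0998 (with the block 0.00256). Psmd3 lay at -0.05 and -0.10 and did not pass. Psmd6 lay at 0.10 and 0.18 and passed only with the block in p300kd cells (0.0266). The changes of the 8 lid genes had an SD of 0.30 among themselves in p300kd cells, under the 0.37 over all genes. It was 0.33 for the 6 assembly chaperones, 0.14 for the 6 core alpha genes and 0.10 for the 9 base genes. In NS cells the SD was 0.267 for the lid, 0.121 for core alpha and 0.0888 for the base, against 0.345 over all genes. For the assembly chaperones it was 0.371 there, above that of all genes.

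**Figure D3:**
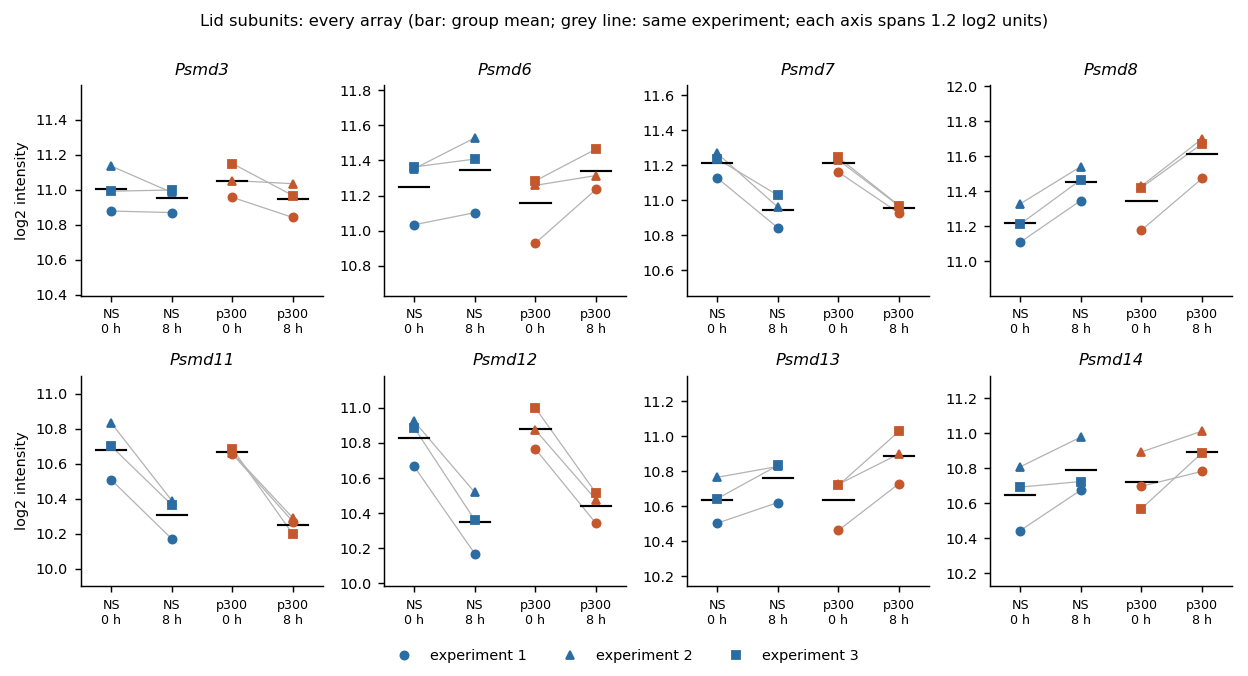
Log2 intensity (vertical axis, 1.2 log2 units in every panel) of the 8 lid subunits on all 12 arrays, by siRNA and hours of Dox. Symbols are experiments, grey lines join arrays of 1 experiment and black bars are group means of 3 arrays; Psmd7, Psmd11 and Psmd12 are lower on every treated array than on every untreated array of the same siRNA, and Psmd8 is higher.

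No core regulator passed for Dox in either condition. Psme1 and Psme2 form the interferon-inducible ring that opens the core, and both lay above 0 in 6 of 6 differences within experiments. Psme1 read 11.67, 11.95 and 12.10 in untreated and 12.04, 12.35 and 12.50 in treated NS cells, so that the groups overlapped, while the differences within the 3 experiments were all between 0.38 and 0.40. The fitted difference was 0.39 ± 0.17 (adjusted p = 0.116; with the block 5.36e-06), and in p300kd cells it was 0.26 ± 0.17 (adjusted p = 0.281; with the block 0.000176). Psme2 lay at 0.19 ± 0.11 and 0.14 ± 0.11, and passed with the block in both (0.000641 and 0.0049). Psme3, the nuclear ring-shaped activator, lay at -0.09 and -0.10. Psme4, the single-chain cap that acts on acetylated histones, lay at 0.17 and 0.05.

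Among the 6 assembly chaperones 2 rose and 1 fell in each condition. The shares of all genes were 11.1% up and 16.4% down in NS cells, and 13.9% and 17.5% in p300kd cells. Psmd10 (gankyrin), a base chaperone that also binds the retinoblastoma protein and MDM2, read 7.85, 7.98 and 7.99 in untreated and 8.19, 8.61 and 8.36 in treated NS cells. In p300kd cells it read 7.93, 8.09 and 7.94, then 8.42, 8.43 and 8.48. All treated arrays lay above all untreated ones, and the rises were 0.45 ± 0.10 (1.37-fold, adjusted p = 0.00512) and 0.46 ± 0.10 (1.37-fold, adjusted p = 0.00391). Psmd5, another base chaperone, which can hold back assembly of the whole particle, read 9.13, 9.47 and 9.33, then 8.48, 8.83 and 8.79 in NS cells, and 9.35, 9.32 and 9.35, then 8.93, 8.83 and 8.93 in p300kd cells. No treated array reached an untreated one. The falls were -0.61 ± 0.11 (1.52-fold lower, adjusted p = 0.0011), the strongest of the 47 in NS cells, and -0.44 ± 0.11 (1.36-fold lower, adjusted p = 0.00705). Psmg4, a chaperone of the alpha ring, rose by 0.29 ± 0.10 (adjusted p = 0.0493) from 9.89, 9.77 and 9.79 to 10.05, 10.04 and 10.24 in NS cells and by 0.30 ± 0.10 (adjusted p = 0.0437) from 9.93, 9.61 and 9.93 to 10.12, 10.02 and 10.22 in p300kd cells. The arrays were apart in both, but these calls lie at the threshold.
The NS call of Psmg4 was lost without any 1 array except the experiment 2 array of untreated p300kd cells (0.0509 to 0.176), and without experiment 3 with the block (0.11). The p300kd call was lost without any 1 untreated NS array, the experiment 1 or 2 array of treated NS cells, the experiment 2 array of untreated p300kd cells or the experiment 1 or 3 array of treated p300kd cells (0.0506 to 0.184). Centring arrays on their median took the NS and p300kd calls of Psmg4 (0.0601 and 0.0569), as did fitting only the groups compared (0.0512 and 0.0926). Psmd10 lost its NS call without experiment 2 or 3 (0.0627 and 0.064) and its p300kd call without experiment 3 (0.0908). Psmd5 kept its NS call in all 32 alternatives and lost its p300kd call without experiment 2 or 3 (0.0728 and 0.083). Psmd9 and Psmg1 did not pass, and Psmg2, another core chaperone, lay at 0.20 ± 0.14 and 0.27 ± 0.14 and passed only with the block (0.0361 and 0.00626). Psmc3ip, a meiotic recombination factor that only shares the name pattern, rose in p300kd cells (0.39 ± 0.09, adjusted p = 0.00545), a call lost without experiment 2 or 3 (0.0965 and 0.0981). In NS cells it lay at 0.23 ± 0.09 (adjusted p = 0.0786; with the block 0.0274). Psma3l, also placed in none of the subgroups, passed only with the block in p300kd cells (0.25 ± 0.14, adjusted p with the block 0.00527).

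No member passed the test for p300 knockdown itself. At 0 h none of the 47 passed by limma, against 0.0207% of all genes (3 members had an unadjusted p under 0.05). At 8 h again none passed, against 0.0483% of all genes (0 members under 0.05 unadjusted). Averaged over both times none passed, against 1.25% of all genes (3 members under 0.05 unadjusted). No gene at all passed the test for a Dox response that differs between p300kd and NS cells, and 0 members had an unadjusted p under 0.05 there. With the experiment as a block 2 members passed at 0 h (2.69% of all genes), 0 at 8 h (3.14%) and 6 over both times (9.51%), all higher in p300kd cells (3.23% of all genes). The members passing over both times were Psmb10, Psme1, Psma1, Psmb3, Psmb4 and Psmd8, and for the interaction 0 passed and 3 had an unadjusted p under 0.05.

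The smallest p-values for knockdown at 0 h belonged to Psmb10, Psmb5 and Psmb3. Psmb10 was 0.32 ± 0.10 higher in untreated p300kd than in untreated NS cells, with no overlap of the arrays given above (adjusted p = 0.437; with the block 0.0275). Psmb5 was 0.15 ± 0.05 higher, also without overlap (adjusted p = 0.455; with the block 0.0506). Psmb3 read 12.19, 12.19 and 12.23 in untreated NS and 12.25, 12.33 and 12.39 in untreated p300kd cells (0.12 ± 0.06, adjusted p = 0.708). These 3 were the members whose arrays did not overlap at 0 h, against 13.0% of all genes. The interval of the difference was 0.10 to 0.54 for Psmb10 (95% confidence, from the fit, not adjusted for the number of genes).
At 8 h the smallest p-values were those of Psmb4 (0.22 ± 0.10, adjusted p = 0.635), Psmb3 (0.11 ± 0.06, 0.665) and Psmd5 (0.20 ± 0.11, 0.687). Averaged over both times they were those of Psmb3 (0.11 ± 0.04, adjusted p = 0.214; with the block 0.0318), Psmb10 (0.19 ± 0.07, 0.294; with the block 0.0319) and Psmb5 (0.08 ± 0.04, 0.365). For the interaction they were those of Psmb5 (-0.14 ± 0.07), Psmb10 (-0.27 ± 0.15) and Psmc6 (0.24 ± 0.16), each at an adjusted p of 1. Psme1 was 0.24 ± 0.17 higher at 0 h, and passed only with the block (0.00848). Over all 47 members the differences were small, with a median of 0.03 at 0 h and 0.06 at 8 h against 0.00 and 0.01 over all genes, and 34 and 40 of the 47 above 0. Markers of other cells lay lower in the same comparison: besides the leukocyte list, 14 of 15 fibroblast markers lay below 0 over both times (median -0.19, 1 passing), and the part of either list was not tested.

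**Figure D4:**
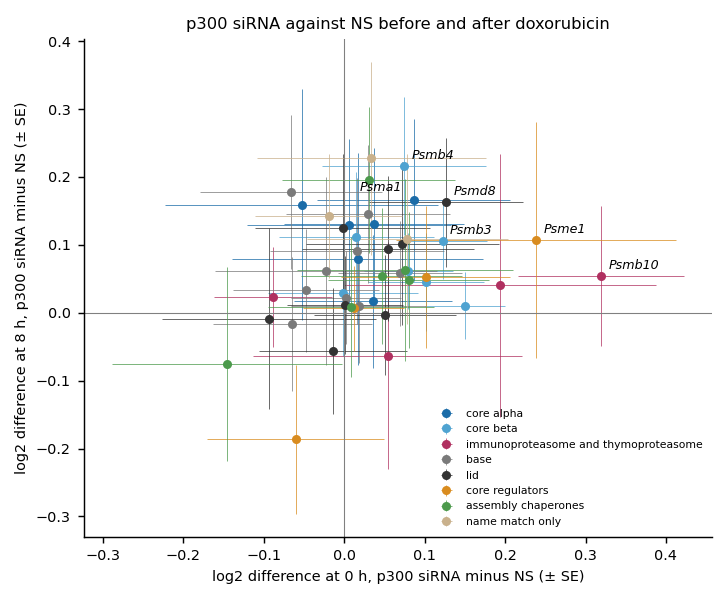
Log2 difference between p300kd and NS cells at 0 h (horizontal axis) and at 8 h of Dox (vertical axis) for the 47 genes, coloured by subgroup, with bars of ± 1 SE from the fit. No gene passed without the block, the 6 named genes passed with it for the average over both times, and Psmb10 lies farthest to the right at 0.32.

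The members also differed between experiments. In 41 of the 47 the mean of the 4 arrays was lowest in experiment 1, which holds for 45.3% of all genes. The range of the 3 experiment means had a median of 0.21 over the members against 0.14 over all genes. It exceeded the size of the Dox change in NS cells in 29 members, which was not counted over all genes. The median size of that change was 0.15 over the members and 0.16 over all genes. Within experiments 19 members lay above 0 with Dox in 6 of 6 differences and 6 lay below 0 in all of them. Those below were Psmc2, Psmc4, Psmd5, Psmd7, Psmd11 and Psmd12. Such repeats were not counted over all genes, so whether the members differ from other genes here is not known. Psmb10 lay above 0 in 4 of 6, with its NS differences between 0.23 and 0.34.

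**Figure D5:**
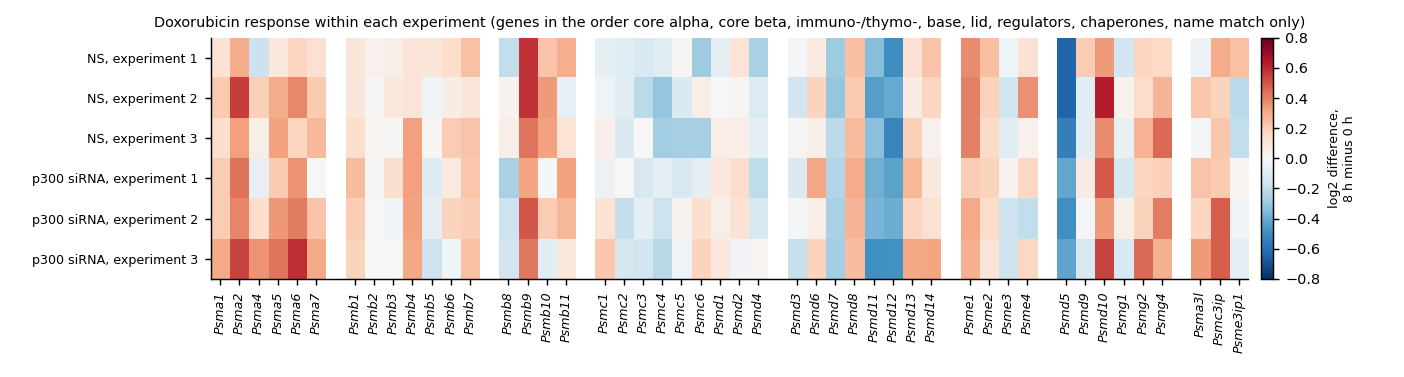
Log2 difference with Dox (8 h minus 0 h) within each of the 3 experiments, for NS cells (upper 3 rows) and p300kd cells (lower 3 rows); columns are the 47 genes by subgroup and colour gives the difference, red above 0 and blue below, on a scale of -0.8 to 0.8. Psmd5, Psmd7, Psmd11 and Psmd12 are blue and Psma2, Psmb9, Psmd8 and Psmd10 red in all 6 rows.

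Genes of the same machinery that carry other names changed in both directions. Of 11 measured proteasome partners 1 rose and 4 fell in NS cells, and 3 rose and 3 fell in p300kd cells. Without the block 27.5% and 31.4% of all genes passed. With the block 3 partners rose and 4 fell in NS cells, and 4 rose and 4 fell in p300kd cells. The block shares of all genes were 21.6% up and 21.9% down in NS cells, and 22.9% and 22.8% in p300kd cells. Adrm1, the ubiquitin receptor of the base, fell by 0.37 and by 0.50 on the log2 scale (adjusted p = 0.00558 and 0.000596), while Uchl5, the deubiquitinase it binds, rose by 0.45 and 0.57 (0.00439 and 0.000817). Akirin2, which carries proteasomes into the nucleus, fell by 0.69 and 0.76, and Zfand5, a proteasome activator, fell by 0.70 and 0.63. Sem1, the smallest lid subunit, and Pomp, the maturation factor of the core, rose in p300kd cells (0.68 and 0.67, adjusted p = 0.0011 and 0.00468). In NS cells they lay at 0.29 and 0.32 and passed only with the block (0.0153 and 0.00153), and the difference between the responses did not pass for either (adjusted p = 1).
On the NRF1 route 2 of 13 genes rose and 6 fell in NS cells (11.1% and 16.4% of all genes). In p300kd cells 4 rose and 5 fell (13.9% and 17.5% of all genes). Nfe2l1 itself rose by 0.26 and 0.35 (adjusted p = 0.0147 and 0.00196), and Ddi2, the protease that releases active NRF1, fell by 0.57 in each. Maff, a binding partner of NRF1, rose by 0.57 and 0.45, and Mafk, another, fell by 1.11 and 1.05, more than any member. Keap1, the adaptor that keeps NRF2 low, fell by 0.83 and 0.92. None of 9 genes for ubiquitin, its activation and its shuttles passed in either condition (1 fell in p300kd cells with the block), Uba1 among them (0.05 and 0.09). Of the 3 NF-Y genes Nfyb rose (0.43 and 0.65), Nfyc fell (-0.26 and -0.29) and Nfya did not pass (-0.09 and -0.08).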

How the data were processed

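Total RNA of 12 cultures was hybridised to Affymetrix whole-transcript arrays. The authors deposited 1 linear intensity per probe set and array (8.05 to 25315), made with Affymetrix Expression Console 1.1 and RMA, per the submitters' processing notes. Here log2 was taken with no offset. Of 29214 probe sets 15310 carry 1 gene symbol, 323 several and 13581 none in the platform annotation; the brightest probe set stood for each of 14506 genes, 46 of the 47 members being in the current RefSeq table. 4 group means were fitted with limma 3.58.1 (R 4.3.3, eBayes with trend) with Benjamini-Hochberg adjustment over all genes and a threshold of 0.05. Precision is limited by the number of arrays. The method was tested on simulated data.

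Groups and replicate numbers come from the titles and treatment labels, and the series design gives 3 experiments. The replicate number was taken as the experiment, which the labels do not state for each array. Arrays of the same number deviated together: the 18 pairs had correlations of 0.17 to 0.69 (median 0.50), against a median of -0.27 over 36 other pairs, so values from a second model with a block for experiment stand beside the calls of named members that it changes. Members and lists were chosen with earlier results of these data known. Genes named are the catalytic subunits, the largest passing rises and falls in each subgroup, those with the smallest p for knockdown and a few per other list; Psme1, Psmc4, Psmd7, Psmb11, Psmd3, Psmd6, Psmd13 and Psmd14 were added after their values were seen.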

Additional observations from a re-analysis of the deposited data

How the results depend on the processing

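The count of members called for Dox was 8 in NS cells and 12 in p300kd cells; brackets give the share of all genes called under the same setting. With the experiment (replicate number) as a block it was 22 and 27 (43.5% and 45.8%), and as a random effect 16 and 21 (39.6% and 43.2%). It was 5 (25.3%) in NS cells when only the groups compared were fitted, and 7 (29.6%) in p300kd cells with arrays centred on their median. Leaving out 1 array or 1 experiment gave 1 to 13 (12.3% and 27.1%) and 0 to 17 (16.3% and 32.2%). Settings added after seeing the data gave 18 and 20 with arrays centred on the median of the genes (38.8% and 43.7%), 32 and 32 with this and the block (54.4% and 57.8%), 21 and 25 with the block and arrays centred on their median (43.1% and 45.1%), 20 and 26 with the block and quantile normalization (42.5% and 44.6%). The block without experiment 1, 2 or 3 gave 19, 17 and 12 in NS cells (36.3%, 37.6% and 31.9%) and 26, 24 and 19 in p300kd cells (39.9%, 40.0% and 35.3%). For knockdown at 0 h the block gave 2 (2.69%) in place of 0, 1 (2.84%) without experiment 1, and 2 with gene centring (2.97%), array centring (2.53%) or quantile normalization (3.06%). Over both times it gave 6 (9.51%) in place of 0, 2 and 1 without experiment 1 or 2 (8.62% and 4.22%), then 6, 4 and 3 with centring on the genes, centring on the array and quantile normalization (9.16% to 10.1%). The block changed no call at 8 h or for the interaction. Of the Dox medians, core alpha kept its sign in every setting. Centring on the genes, with or without the block, moved core alpha to 0.32 and 0.39 and core beta to 0.22 and 0.18. It moved the base to -0.0074 and 0.0645, the lid to 0.13 and 0.14 and all members to 0.16 and 0.18. Leaving out arrays took the base in p300kd cells from -0.12 to 0.0827, the highest without the experiment 1 array of treated cells. Of 20 called gene results 1, Psmd5 in NS cells, was never lost. The sign of Psmb2 in p300kd cells turned to -0.0921 (adjusted p = 0.0457) with the block and quantile normalization together; the cause was not tested, nor were those of the other shifts. Changes under about 0.2 are near the error of 3 arrays, and Psmb11 is too dim for a firm reading.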

Other observations

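The probe set shared by Psma3 and Psma3l, left out above because it names both genes, read 11.52, 11.95 and 11.97 in untreated NS cells and 11.63, 12.05 and 11.78 after Dox. In p300kd cells it read 11.72, 12.03 and 11.92, then 11.94, 12.25 and 12.15. Its group means differed by 0.01 in NS cells, where the arrays overlapped, and by 0.22 in p300kd cells, where they overlapped too.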
